A study of Mus with 8 samples.

Results

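The cells described here are newborn mouse progenitors rich in neutrophil protease transcripts, taken from sorted Lin-Kit+ blood progenitors (cells without mature lineage markers that carry the stem cell factor receptor Kit). They were chosen by 3 measured transcripts. A barcode counted as a cell with at least 7500 gene UMI (unique molecular identifiers, each standing for 1 captured RNA molecule) and at most 10% mitochondrial UMI. It was selected when Elane, Ctsg and Prtn3 together held 10 or more of every 10000 gene UMI. Of 11658 cells in the 2 newborn Lin-Kit+ libraries, 3336 were selected, and the whole series held 35549 cells in 8 libraries. The remaining 8322 cells of the 2 libraries are called the other cells.

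The title of the series names the regulation of newborn blood formation by interferon. RNA and 10 antibody tags were counted in the same cells by CITE-seq, in which antibodies carry readable oligonucleotides. Lin-Kit+ and Lin-Sca1+Kit+ cells came from newborn mice (P0) and from mice 14 days old (P14), and each age and sort had an Ifnar+/- and an Ifnar-/- library. The Ifnar gene encodes a chain of the receptor through which all type I interferons signal. The controls are therefore heterozygous and keep 1 working copy, and no wild-type mice were analysed here. The labels write Ifnar without a number, and they give neither the allele, the organ, nor how many mice were pooled. Each age, sort and genotype is 1 library, so genotypes at P0 have no replicates within the sort. A fit that pools ages and sorts was not run, no p-value is given, and intervals cover counting error only.

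Neutrophils are short-lived white cells that kill microbes with proteins stored in granules. Their progenitors first make primary granule proteins, among them myeloperoxidase and the serine proteases neutrophil elastase, cathepsin G and proteinase 3, and later make secondary granule proteins such as cathelicidin and lactoferrin. The same proteases are also made, at least briefly, by progenitors that can still form monocytes. Type I interferons act through their receptor and its JAK kinases to switch on a broad set of antiviral genes.

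The libraries were deep and held few shared barcodes. Selected cells had a median of 45448 gene UMI in Ifnar+/- and 36017 in Ifnar-/-, and their summed UMI came to 75165382 and 68244934. The 2 libraries shared 7 cell barcodes, none of them selected in both. Free RNA, read in barcodes with 100 UMI or fewer, carried 21.2 and 26.2 UMI of the 3 proteases per 10000, above the selection threshold of 10. With free RNA subtracted at 5% of each cell's UMI, 25.7% and 29.3% of cells were selected. Scrublet-based removal, at an assumed rate that rises with the number of cells, took 4.78% of selected Ifnar+/- cells and 7.02% of selected Ifnar-/- cells. The interferon receptor transcript Ifnar1 had 19.4 and 17.7 CPM (UMI per 1000000 gene UMI) in selected Ifnar+/- and Ifnar-/- cells, so counts of this transcript do not show the loss of the receptor.

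The values that chose the cells are given as a description. Elane (neutrophil elastase) stood at 2145 CPM in selected Ifnar+/- and 2526 CPM in selected Ifnar-/- cells, against 12.2 and 10.9 CPM in the other cells. Ctsg (cathepsin G) stood at 1992 and 2095 CPM against 21.7 and 15.9 CPM. Prtn3 (proteinase 3) stood at 4812 and 5567 CPM against 134 and 125 CPM. The selected cells held 94.6% and 96.4% of each library's UMI of these genes. In the mm10 build, Prtn3 lies on chromosome 10 at 79879667-79883174, beside Elane at 79886312-79888216, and Ctsg lies on chromosome 14 at 56099885-56102574. Prss57, a further serine protease gene, lies nearby on chromosome 10 at 79781474-79794684.

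The threshold lay within a continuous range. The summed protease level per cell had a median of 52.0 UMI per 10000 in Ifnar+/- and 56.6 in Ifnar-/-, with 10th percentiles of 13.3 and 14.2 and highest cells at 506 and 651. Just outside the threshold, at 5 to under 10 per 10000, lay 569 and 500 cells. Just inside it, at 10 to under 15, lay 223 and 196 cells. Cells just inside had almost no Elane, at 22.1 and 14.0 CPM, and met the threshold through Prtn3, at 901 and 930 CPM, and Ctsg, at 312 and 271 CPM. At 150 per 10000 or more there were 342 and 466 cells, with Elane at 7843 and 8272 CPM.

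Genes that the rule did not name differed along this range. Mpo (myeloperoxidase) was already at 1435 and 1361 CPM just inside the threshold and reached 5670.1 and 6118 CPM in the highest range. Camp (cathelicidin, a secondary granule protein) stayed under 2 CPM up to 50 per 10000, then reached 83.1 and 233 CPM, and 1049 and 927 CPM in the highest range. F13a1 (a coagulation factor chain that monocytes also make) and Irf8 (a transcription factor of monocyte and dendritic lineages) peaked below the highest range. Irf8 went from 163 and 191 CPM at 50 to under 150 per 10000 to 47.6 and 64.8 CPM above that. Cd34, a surface protein of early progenitors, went from 287 and 277 CPM just inside the threshold to 42.8 and 52.3 CPM in the highest range.

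**Figure D1:**
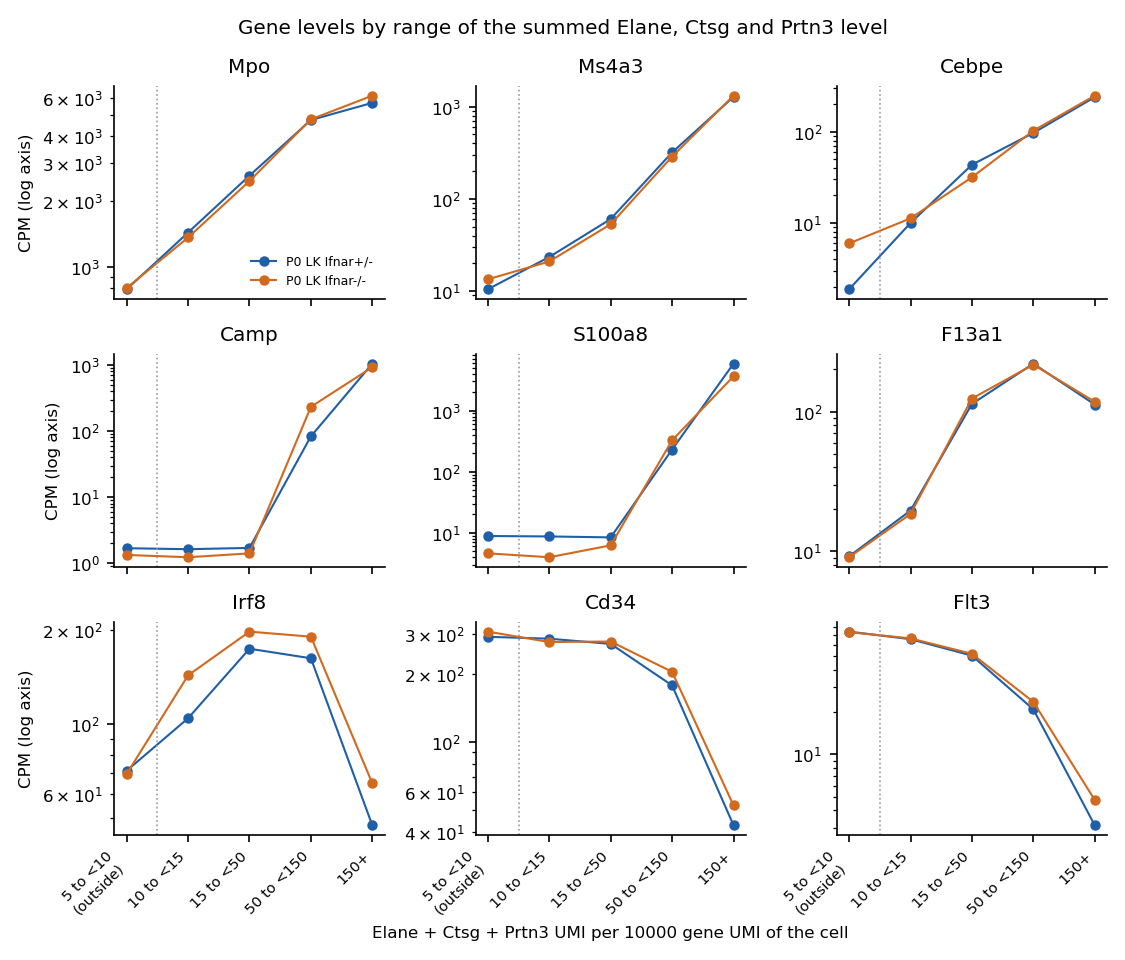
Level of 9 genes (CPM, log axis) in cells grouped by their summed Elane, Ctsg and Prtn3 level (UMI per 10000 gene UMI), for the Ifnar+/- and Ifnar-/- libraries; the dotted line is the selection threshold and points are sums over cells with no error bar. Ms4a3, Cebpe and Camp are highest in the highest range, where Cd34 and Flt3 are lowest; the 2 libraries differ in places, as for Camp at 50 to under 150 per 10000, at 83.1 and 233 CPM.

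Against the other cells, 932 of 13071 genes (7.13%) were at least 2-fold higher in selected cells of both libraries and 1121 (8.58%) at least 2-fold lower. Because the rule used this contrast, these values describe the cells and test nothing. Among the 13 primary granule genes read, 9 were at least 2-fold higher in both libraries. Mpo had 3744 and 3955 CPM in selected cells against 157 and 138 CPM in the others. Ms4a3, a membrane protein of granulocyte-monocyte progenitors, was 85.5 and 98.5 times as high as in the other cells. The protease gene Prss57 was 21.3 and 24.2 times as high, and the proteoglycan gene Srgn, which packs granule proteases, 2.90 and 3.07 times.

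Secondary granule genes were present but unevenly. All 9 that could be read in both libraries were at least 2-fold higher in selected cells, among them Hp (haptoglobin) at 176 and 191 CPM and Fcnb (ficolin B) at 36.5 and 35.2 CPM. Ltf (lactoferrin) was near 0, with 9 and 20 UMI in all selected cells. Among late neutrophil genes, S100a8 (a calcium-binding protein abundant in neutrophil cytoplasm) had 1242 and 976 CPM and its partner S100a9 had 926 and 931 CPM. The 13 late genes together came to 2315 and 2061 CPM. Of the 6 that could be read in both libraries, 4 were at least 2-fold higher in selected cells. Some late genes were at or near 0: Ly6g and Fpr1 had 0 UMI in both libraries, Retnlg had 2 and 3 UMI and Mmp9 had 1 in each. A count of 0 in these sums allows up to 3 UMI.

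Transcription factors of the neutrophil line were higher or similar in the selected cells. Of 12 factors read, 6 were at least 2-fold higher in both libraries and none lower. Cebpe, which drives secondary granule genes, had 95.1 and 104 CPM against 0.867 and 1.04 CPM in the other cells. Cebpa, needed to enter the granulocyte-monocyte path, had 68.4 and 61.6 CPM against 7.87 and 6.81 CPM. Gfi1, a repressor that favours neutrophils over monocytes, had 32.2 and 35.4 CPM against 5.76 and 5.08 CPM. Myc had 125 and 113 CPM in selected cells and 128 and 124 CPM in the others.

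Growth factor and Fc receptors followed. Of 19 receptor genes read, 12 were at least 2-fold higher. Fcgr3, which encodes CD16, had 128 and 125 CPM against 5.41 and 4.76 CPM. Csf3r, the receptor for G-CSF, had 30.7 and 31.0 CPM against 6.49 and 5.84 CPM, and Csf1r, the receptor for M-CSF, had 28.0 and 30.1 CPM against 3.11 and 2.62 CPM. Kit, used in the sort, had 115 and 95.5 CPM in selected and 157 and 145 CPM in other cells.

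Effector and secretory machinery was also higher. Of the 6 NADPH oxidase genes, whose product makes superoxide, 5 were at least 2-fold higher, including the membrane subunit Cybb at 25.1 and 22.1 CPM against 0.853 and 0.312 CPM. Of 19 genes of protein folding and export in the endoplasmic reticulum, 12 were at least 2-fold higher. Calr (calreticulin) had 1669 and 1614 CPM against 556 and 543 CPM, and the chaperone Hspa5 had 619 and 626 CPM against 245 and 243 CPM.

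Shares of cells with a UMI were read after thinning each cell to 7500 UMI. Elane was found in 65.6% and 67.9% of selected cells, and Ms4a3 in 49.6% and 51.6%. Erythroid-type cells among the other cells, which should lack these genes, gave 10.8% and 8.73% for Elane and 2.76% and 1.10% for Ms4a3. They were taken from cells below the protease threshold, so the rule itself held their Elane share down. Their median depth was 78908 and 60302.5 UMI before thinning. Without thinning, 86.2% and 82.5% of selected cells had an Elane UMI, and 68.9% and 66.0% had an Ms4a3 UMI. Mpo was found in 99.7% and 99.5% of selected cells and in 23.5% and 19.6% of the erythroid-type cells.

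Markers of other cell types were read beside these lists. Of 14 monocyte genes read, 11 were at least 2-fold higher in selected cells, for example Ly6c2 at 168 and 128 CPM against 2.03 and 0.871 CPM. The 4 eosinophil genes read and 6 of 9 basophil and mast cell genes were higher as well, some of them through few cells: Epx (eosinophil peroxidase) had a UMI in 19 and 21 selected cells, and Prg2 in 121 and 107. All 15 erythroid genes were at least 2-fold lower, as were 7 of 12 stem cell genes and 6 of 11 dendritic genes. The erythroid transcription factor Klf1 had 7.94 and 13.5 CPM against 124 and 145 CPM. The lists therefore fit the label only in part, since the rule also gathers cells with monocyte genes and a few with eosinophil or basophil genes, and the cells are called the selected cells below.

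The selected cells were clustered without the 3 rule genes, the interferon genes and genes that differed between genotypes, which gave 11 clusters. Of the cell cycle genes, 20 of G1/S and 20 of G2M were left out and others stayed in. The genes that set clusters apart are descriptions, since clustering used them. Clusters 4 and 8 were neutrophil-like by the marker rule, cluster 8 only with the minimum of 3 markers, Ms4a3, Prss57 and Nkg7. Cluster 4 (364 cells) had Elane at 10438 CPM, Camp at 2667 CPM, Ngp at 204 CPM and S100a8 at 11323 CPM. Its summed secondary granule genes came to 5294 CPM and were at most 902 CPM in every other cluster. Among all selected cells, 10 cells per library held 81.5% and 77.8% of the Ngp UMI and 49.9% and 49.1% of the Camp UMI. Cluster 8 (232 cells) had Elane at 6221 CPM and Cebpe at 273 CPM, but Camp at only 9.69 CPM.

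Cluster 7 (240 cells) resembled cluster 8 in Elane, at 4733 CPM, and Ms4a3, at 944 CPM, and stayed unnamed by the marker rule. Clusters 3 and 10 (456 and 172 cells) were monocyte-like. Cluster 3 had Irf8 at 451 CPM, F13a1 at 457 CPM and Ccr2, the chemokine receptor of monocytes, at 90.5 CPM, with Elane at 1683 CPM. Its Gfi1 level was 13.5 CPM, against 79.1 CPM in cluster 4.

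The remaining clusters carried other or earlier programs. Cluster 2 (491 cells) had the early progenitor genes Flt3 at 70.7 CPM and Angpt1 at 70.6 CPM, with Elane at only 80.5 CPM and Mpo at 2061 CPM. Angpt1 was not particular to it, at 77.1 CPM in cluster 9, 58.0 CPM in cluster 1 and 52.2 CPM in cluster 6. Cluster 9 (218 cells) held the eosinophil granule gene Prg2 at 1349 CPM and the basophil genes Prss34 at 425 CPM and Ms4a2 at 315 CPM. Among all selected cells, 10 cells per library held 88.9% and 80.8% of the Prg2 UMI and 54.4% and 49.2% of the Prss34 UMI. Cluster 5 (270 cells) combined Cebpe at 172 CPM with the mast cell and basophil gene Cpa3 at 164 CPM. Cluster 9 had both genes as well, at 182 and 358 CPM, and Cpa3 stood at 197 CPM in cluster 6 and 120 CPM in cluster 1. Cluster 1 (515 cells) was led by mitotic genes. Cluster 6 (248 cells) met the marker rule for basophil or mast cells through Tpsb2, Cma1 and Cpa3. That name is not used here, a choice made after its values were seen: 10 cells held 94.4% and 92.0% of the UMI of Tpsb2 and Cma1 among selected Ifnar+/- cells. Cpa3, the third marker, was at 200 and 191 CPM in the Ifnar+/- and Ifnar-/- cells of cluster 6.

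Cluster 11 (130 cells) expressed erythroid genes, with Blvrb at 428 CPM and Car1 at 154 CPM beside Elane at 1506 CPM. Its median depth was 78693 UMI, and 91.5% of its cells were marked as doublets. It held 2.61% of selected Ifnar+/- cells and 5.04% of Ifnar-/- cells, so the genotype ratios of erythroid genes are given with and without it.

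**Figure D2:**
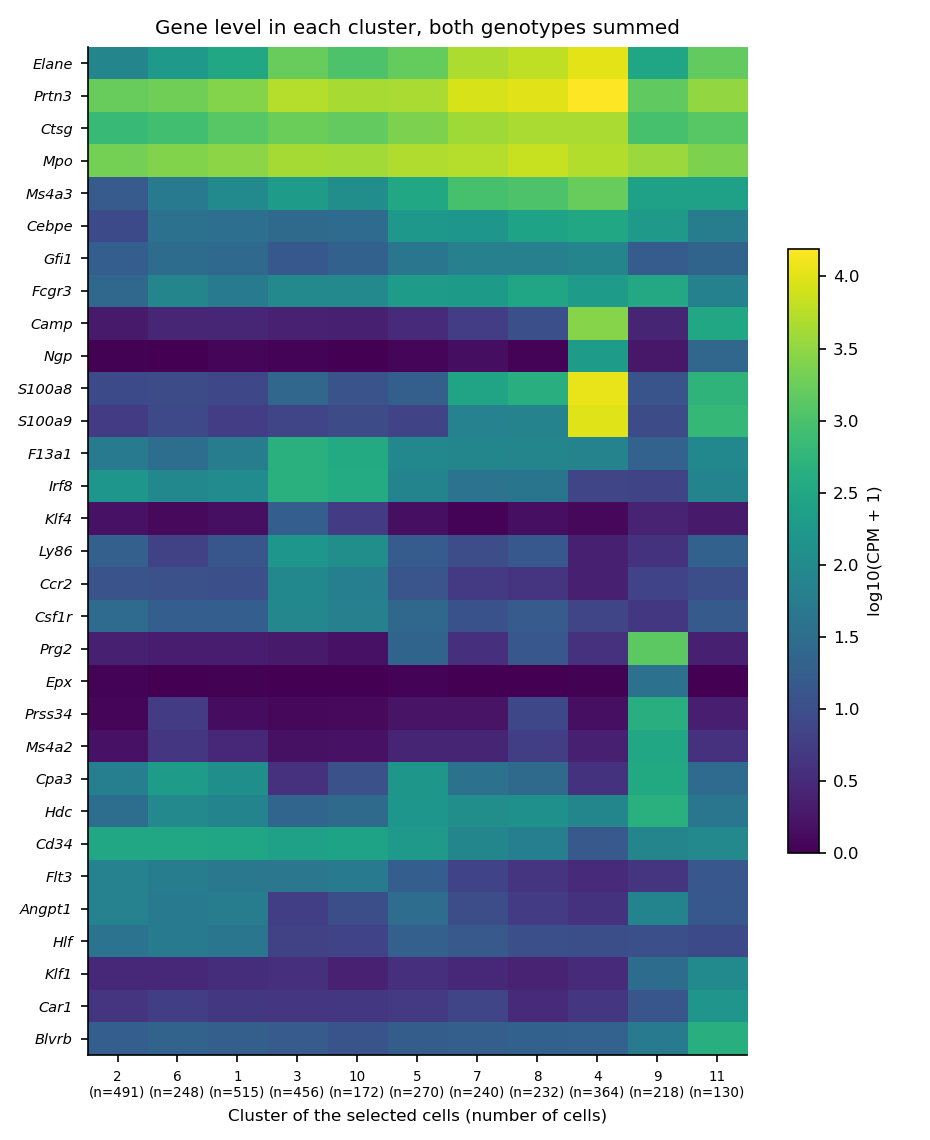
Gene levels, as log10(CPM + 1), in the 11 clusters of selected cells with both genotypes summed; columns are clusters with their cell numbers and rows are genes. Camp, Ngp, S100a8 and S100a9 are brightest in cluster 4, Irf8, Ly86 and Ccr2 in clusters 3 and 10, Prg2 and Prss34 in cluster 9, and Car1 and Blvrb in cluster 11.

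The antibody tags are a readout that neither the rule nor the clustering used. CD16/32, the Fc receptor tag that marks granulocyte-monocyte progenitors, had a median of 465 tags in selected Ifnar+/- cells and 433 in Ifnar-/-, against 42 and 29 in the other cells. These medians are 11.1 and 14.9 times as high. The 10th to 90th percentile range of selected cells was 66 to 1219 and 50 to 1348 tags, and that of the other cells was 15 to 127 and 11 to 85, so the ranges overlapped at their edges. As a share of all tags the ratio was 6.36 and 8.62.

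CD34 tags had medians of 126 and 138 against 25.5 and 21 in the other cells, which is 4.94 and 6.57 times as high, but 1.55 and 1.92 times as a share of all tags. CD117, the protein of Kit, had 731 and 729 against 717 and 793.5 tags, and as a share of all tags 0.74 and 0.68 of the level in the other cells. CD41, an integrin chain of the megakaryocyte line, had 38 and 36 against 16 and 14 tags, but as a share of all tags 0.79 and 0.82 of the level in the other cells. CD48 was 4087 and 4516 against 3122 and 3306 tags, but as a share of all tags 1.01 and 0.998 of the level in the other cells. CD150, a marker of stem cells and of megakaryocyte and erythroid progenitors, was lower in selected cells, at 7 and 6 against 32 and 29 tags. CD135 (Flt3 protein), CD127 and CD201 had medians of 8 or fewer in selected cells. The tag labelled SA_PE, whose target the files do not name, had 29 and 12 against 49 and 25 tags, and was lower in Ifnar-/- in both populations.

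CD16/32 tags followed the protease level. Their median was 92 and 57.5 just inside the threshold, 195 and 154 at 15 to under 50 per 10000, 625 and 537 at 50 to under 150, and 889 and 940.5 above. Just outside the threshold it was 50 and 30. Across clusters it was lowest in cluster 2, at 110.5 and 78 tags, and highest in cluster 4, at 966 and 1096. CD34 tags ran differently: they were highest in the monocyte-like cluster 3, at 297.5 and 331, and lowest in cluster 4, at 18 and 19, below the median of the other cells. Cd34 RNA was likewise 13.6 CPM in cluster 4, against 255 CPM in cluster 3 and 314 CPM in cluster 2.

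**Figure D3:**
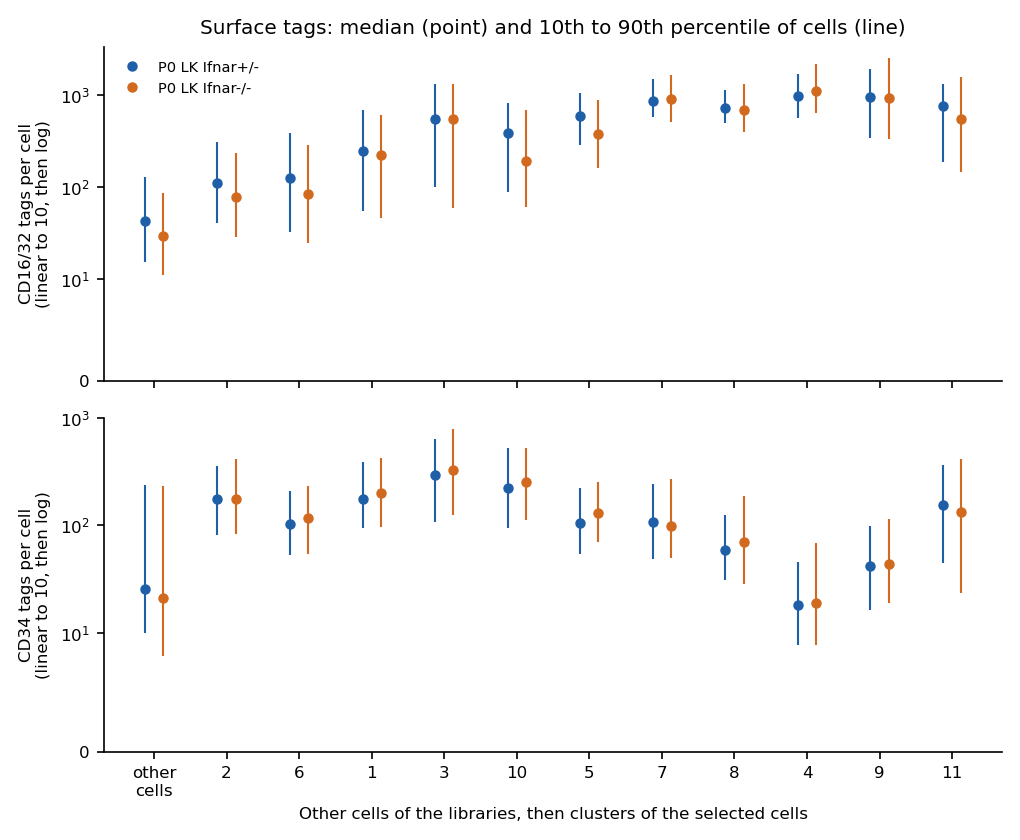
CD16/32 and CD34 antibody tags per cell (linear to 10, then log axis) in the other cells and in each cluster of selected cells, for both libraries; points are medians and lines run from the 10th to the 90th percentile of cells. CD16/32 is lowest in the other cells and highest in cluster 4 at 966 and 1096 tags, and CD34 in cluster 4 is at 18 and 19 tags.

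The selected share was higher in the Ifnar-/- Lin-Kit+ library. In Ifnar+/-, 1569 of 5891 cells were selected, which is 26.6% (exact Clopper-Pearson 95% interval 25.5 to 27.8). In Ifnar-/-, 1767 of 5767 cells were selected, which is 30.6% (29.5 to 31.8). The difference of 4.01 points had a counting interval of 2.37 to 5.65. With 1 library each, spread between mice is unknown. In the newborn Lin-Sca1+Kit+ libraries the order was opposite, with 231 of 5122 cells (4.51%) in Ifnar+/- and 20 of 3471 (0.576%) in Ifnar-/-. Many of those 231 cells lay near the threshold. Their median protease level was 13.5 UMI per 10000, that of the 20 cells was 32.1, and Lin-Kit+ medians were 52.0 and 56.6. Without cluster 11 the Lin-Kit+ shares were 26.1% and 29.6%, and at thresholds of 5 and 20 per 10000 their difference was 3.02 and 4.10 points.

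Most clusters had similar shares of the selected cells in both libraries. The neutrophil-like clusters 4 and 8 together held 16.7% in Ifnar+/- (14.9 to 18.6) and 18.9% in Ifnar-/- (17.1 to 20.8), and cluster 4 alone 10.6% and 11.1%. Finer clusters put 24.0% and 26.1% in the neutrophil-like class. Cluster 5 was the smaller in Ifnar-/-, at 10.8% (9.28 to 12.4) against 5.72% (4.68 to 6.90). With finer clusters the similar cluster held 6.95% (5.74 to 8.32) and 5.15% (4.17 to 6.29), whose intervals overlap. The monocyte-like clusters 3 and 10 held 17.3% (15.5 to 19.3) and 20.1% (18.3 to 22.1). That difference of 2.81 points was 4.73 points with coarser clusters and -0.03 with finer ones, so no direction is read from it. Clusters 3 and 10 did not move together: cluster 3 had 11.98% and 15.2%, and cluster 10 had 5.35% and 4.98%.

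**Figure D4:**
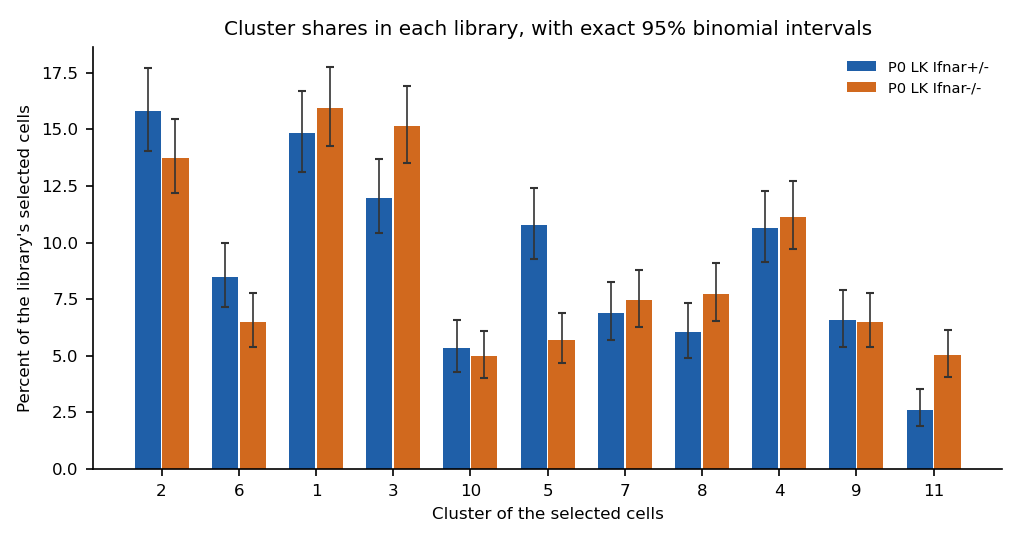
Percent of each library's selected cells in each cluster; bars are shares and error bars are exact 95% binomial intervals, which cover counting error only. The intervals of the 2 libraries overlap in most clusters, and are apart in cluster 5 (10.8% and 5.72%) and cluster 11 (2.61% and 5.04%).

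The share of cells with several transcripts of mitotic genes was lower in selected than in other cells in each thinned comparison, by a gap that varied with the measure. After thinning to 2000 UMI, 47.2% of selected Ifnar+/- cells (44.7 to 49.7) had at least 3 UMI of 20 G2M genes, against 55.6% of other cells (54.1 to 57.1). In Ifnar-/- the shares were 51.0% (48.6 to 53.3) and 59.7% (58.1 to 61.2). After thinning to 4000 UMI the shares were 68.8% (66.5 to 71.1) against 71.5% (70.1 to 72.8) in Ifnar+/-, and 71.1% (69.0 to 73.2) against 73.7% (72.3 to 75.1) in Ifnar-/-, with overlapping intervals. With at least 5 UMI required at 2000 UMI, the shares were 27.1% against 38.2% and 32.2% against 40.6%. Without thinning nearly all cells passed, and the shares were 99.2% and 98.0% in selected cells and 94.9% and 92.8% in the others. Within the selected cells, cluster 7 had 67.6% and 62.9% of cells with at least 3 UMI at 2000 UMI and cluster 8, close to it in granule genes, 16.8% and 13.9%.

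Interferon-responsive genes were much lower in selected cells of Ifnar-/- mice. Of 11915 genes read, 99 (0.831%) were at least 2-fold lower in Ifnar-/- and 37 (0.311%) at least 2-fold higher. The interferon list had 76 genes, of which 74 were in the features and 68 had enough UMI. All 68 were below 0 on the log2 scale, 48 were at least 2-fold lower and none was 2-fold higher. Because the list was chosen with earlier results of these data known, these counts are a description. Their median log2 ratio was -1.83, against -0.01 for all genes read, and their summed level was 3306 CPM in Ifnar+/- and 1897 CPM in Ifnar-/-. The list makes up 48 of the 99 lower genes.

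Several of these genes were close to 0 in Ifnar-/-. Ifi27, a small mitochondrial membrane protein, had 126 CPM in Ifnar+/- and 5.39 in Ifnar-/- (log2 ratio -4.55, interval -4.70 to -4.40). Rtp4, a chaperone of membrane receptors, had 31.98 and 0.147 CPM (-7.70, -8.83 to -6.89). Isg15, a ubiquitin-like modifier, had 31.8 and 0.689 CPM (-5.51, -5.98 to -5.11). With cells thinned to 7500 UMI, Isg15 had a UMI in 17.9% of selected Ifnar+/- cells and 0.509% of Ifnar-/- cells, and Ifi27 in 48.8% and 4.30%. Without thinning the shares were 54.4% and 2.04%, and 81.0% and 14.5%.

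Antiviral sensors and effectors showed the same direction. Oas1a, a sensor of double-stranded RNA, had 19.3 and 0.0879 CPM. Its relative Oas2 had 222 UMI in Ifnar+/- and 0 in Ifnar-/-, at least 67.2-fold lower with a floor of 3 counts, and Oas1g had 91 and 0 UMI, at least 27.5-fold lower. Lgals3bp, a secreted glycoprotein, had 53.5 and 6.18 CPM (-3.11). In a core list of strongly interferon-dependent genes, chosen with the same knowledge, 12 of 13 read were at least 2-fold lower. Their summed level was 148 and 7.65 CPM, and their median log2 ratio was -6.20, or -6.11 with Oas2 at its bound. Ifit2 was the exception at 4.62 and 2.75 CPM (-0.74).

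The signalling chain was affected unequally. The factors that interferon itself induces were lower: Irf7 had 14.9 and 0.161 CPM, and Irf9 had 23.1 and 3.41 CPM. The feedback inhibitor Usp18 had 6.57 and 0.0879 CPM. Upstream parts differed little. The kinase Jak1 had 75.5 and 74.5 CPM, the second receptor chain Ifnar2 had 90.4 and 94.7 CPM, and the log2 ratio of Ifnar1 was -0.13 (-0.24 to -0.02).

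Antigen presentation genes were lower by a small amount. All 17 read were below 0, with a median of -0.30, and 1 was at least 2-fold lower, the class I gene H2-Q4 (-1.65). B2m, the constant chain of class I molecules, had 382 and 266 CPM (-0.53, -0.55 to -0.50). H2-K1 had 176 and 135 CPM and the peptide transporter Tap1 had 34.9 and 21.1 CPM. The proteasome subunit Psmb8 had 345 and 320 CPM (-0.11). Psmb8 is also on the interferon list, so the 2 lists overlap.

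The other cells of the libraries gave a baseline for these ratios. There 172 of 13535 genes (1.27%) were at least 2-fold lower and 19 (0.14%) at least 2-fold higher in Ifnar-/-. Over the 68 interferon genes read in both, the median was -1.85 in the other cells and -1.83 in the selected cells. Of the 99 lower genes, 83 were also at least 2-fold lower in the other cells, which is 83.8% of the 99 and 48.3% of the 172. Over the 17 antigen presentation genes read in both, the median was -0.45 in the other cells and -0.30 in the selected cells. B2m had a ratio of -0.95 there, and Psmb8 -0.37. In Ifnar-/-, B2m was 266 CPM in selected and 165 CPM in other cells, whereas in Ifnar+/- it was 382 and 319.5 CPM.

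**Figure D5:**
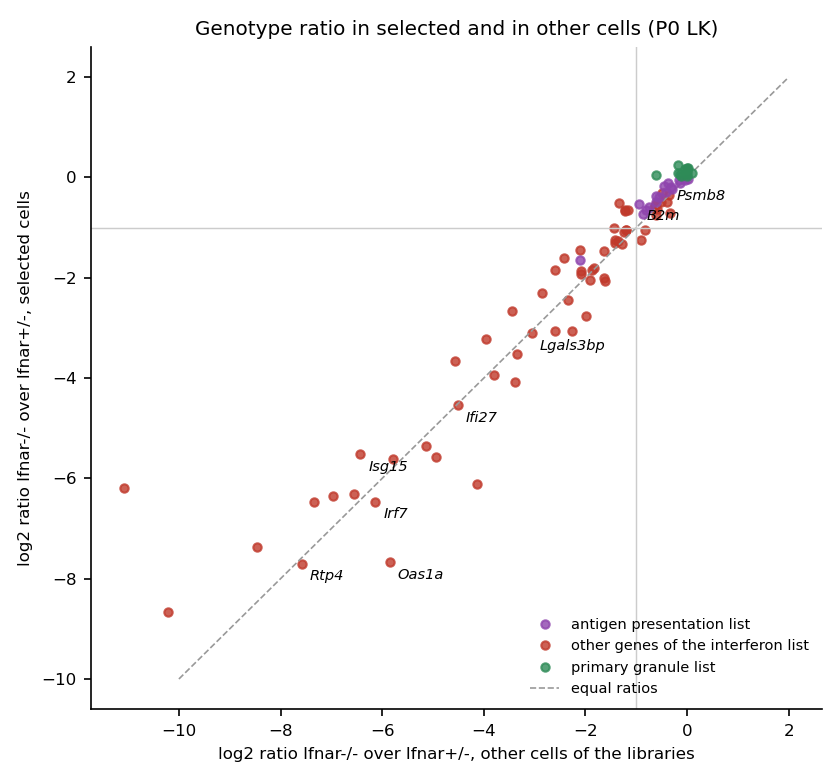
Log2 ratio of Ifnar-/- over Ifnar+/- in selected cells (vertical) against the same ratio in the other cells (horizontal), 1 point per gene, for interferon, antigen presentation and primary granule genes; grey lines mark a 2-fold fall and the dashed line equal ratios. Interferon genes run along the dashed line down to ratios below -6, where values rest on few UMI and on the added 0.5 counts, while B2m and Psmb8 lie above it and granule genes sit near 0.

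Interferon genes were lower in each of the 11 clusters of selected cells. Over the 30 list genes read in every cluster, the median log2 ratio ran from -0.69 in cluster 4, the one with most secondary granule RNA, to -1.23 in cluster 3, and 29 or 30 of the 30 were below 0 in each. Within Ifnar+/-, the summed interferon list was lowest in cluster 4, at 1793 CPM, and highest in cluster 6, at 4456 CPM. In Ifnar-/- those sums were 1216 and 2343 CPM.

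No granule gene read was 2-fold apart between genotypes in the selected cells. All 13 primary granule genes were above 0, but their median was 0.09 and none reached 2-fold. Mpo had 3744 and 3955 CPM (0.08, 0.07 to 0.09), and Ms4a3 had 380 and 426 CPM (0.17, 0.14 to 0.19). The 10 secondary granule genes had a median of 0.28 and none reached 2-fold. In the other cells, where these genes were far lower, all 10 read were below 0, 6 were at least 2-fold lower in Ifnar-/- and the median was -1.48. Camp had 236 and 296 CPM (0.33), and 0.16 without cluster 11, and 10 cells held 49.9% and 49.1% of its UMI. S100a8 went the other way, with 1242 and 976 CPM (-0.35). The 12 neutrophil transcription factors ran from -0.16 to 0.21.

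Of the 37 genes higher in Ifnar-/-, 3 were on the erythroid list and 3 were also at least 2-fold higher in the other cells. With 5 CPM added to both sides, 0 genes were 2-fold higher. Among the 10 named for the largest ratio were the transcription factor genes Fos, Jun and Egr1. Fos had 11.8 and 27.8 CPM (1.23, 1.12 to 1.35), Jun had 23.7 and 50.8 CPM (1.10) and Egr1 had 4.39 and 10.5 CPM (1.26). In the other cells the ratios of these genes were 0.82, 0.77 and 0.43.

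Of 15 erythroid genes read, 3 were at least 2-fold higher in Ifnar-/-, among them Rhd, 13 were above 0 and the median was 0.59. Car1 was lower, at 16.5 and 13.4 CPM (-0.30). Without cluster 11, 14 were read, 0 were 2-fold higher, 5 were above 0, the median was -0.12 and Car1 was at -0.72. Blvrb had 36.2 and 62.2 CPM (0.78), and 0.15 without that cluster. Rhd had 4.18 and 9.20 CPM (1.14), and -0.13 without it. Ndufa4l2, of the fetal list, had 5.79 and 12.25 CPM (1.08), and 0.09 without it. Fos was not touched by it, at 1.26 without the cluster.

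Of 14 monocyte genes read, 1 was at least 2-fold higher in Ifnar-/- and 0 lower, with 9 above and 5 below 0 and a median of 0.11. The membrane protein genes Ms4a6b and Ms4a6c had 28.6 and 15.8 CPM (-0.85) and 127 and 93.5 CPM (-0.44), and Ly6c2 had 168 and 128 CPM (-0.39). Klf4, a factor of monocyte identity, had 2.09 and 4.31 CPM (1.04, 0.76 to 1.33), or 0.87 with each cluster weighted by its pooled share, and Irf8 had 136 and 159 CPM (0.22). Of 9 basophil and mast cell genes read, 2 were at least 2-fold lower and 0 higher, with 5 below and 4 above 0 and a median of -0.12. The 2 were Tpsb2 and Cma1, while the basophil protease gene Prss34 had 18.7 and 30.1 CPM (0.69). Tpsb2 had 9.92 and 1.54 CPM, but its highest single Ifnar+/- cell alone held 421 of 746 UMI.

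Cells selected by the same rule at P14 show where the newborn cells differ. At P14 the Lin-Kit+ libraries held 727 such cells of 2411 in Ifnar+/- (30.2%) and 864 of 3885 in Ifnar-/- (22.2%), so the order of the genotypes was opposite to that at P0. Age and any change of organ cannot be told apart. Of 11590 genes read, 121 (1.04%) were at least 2-fold higher at P14 in both genotypes and 236 (2.04%) at least 2-fold lower.

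Late granule genes were among those higher at birth. Of 9 secondary granule genes read, 6 were at least 2-fold lower at P14. Camp had 236 and 296 CPM at P0 in Ifnar+/- and Ifnar-/-, and 2.997 and 10.3 CPM at P14. At P0, 10 cells per library held 49.9% and 49.1% of the Camp UMI. Of 5 mature neutrophil genes read, 2 were at least 2-fold lower at P14, and the list's median log2 ratios were -0.016 and -0.083. S100a9, of that list, had 926 and 931 CPM at P0, and 32.6 and 90.03 CPM at P14. The cysteine protease inhibitor Stfa1 had 1194 and 989 CPM at P0, and 12.02 and 3.63 CPM at P14. None of the 13 primary granule genes was 2-fold apart, and Mpo had 3744 and 3955 CPM at P0 against 3469.6 and 3449.8 CPM at P14.

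Several genes of the fetal list, not all of them regulators, were also higher at birth. Of 10 read, 6 were at least 2-fold lower at P14 in both genotypes. Lin28b, an RNA-binding protein of fetal blood formation, had 17.1 and 17.6 CPM at P0 and 2.57 and 2.02 CPM at P14. Among genes higher at P14, the transferrin receptor Tfrc had 28.0 and 26.0 CPM at P0 and 103 and 80.0 CPM at P14.

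The effect of genotype on interferon genes was smaller at P14. Over the 56 list genes read at both ages, the median log2 ratio was -1.29 at P0 and -0.33 at P14, and 53 of the 56 lay nearer 0 at P14. The whole list summed to 3306 CPM in P0 Ifnar+/- selected cells and 2959 CPM in P14 Ifnar+/-, against 1897 and 2408 CPM in Ifnar-/-. That sum includes genes with a small genotype ratio, such as Psmb8 (-0.11 at P0). The core list summed to 148 CPM in P0 Ifnar+/- selected cells and 19.4 CPM in P14 Ifnar+/-, against 7.65 and 10.95 CPM in Ifnar-/-. Between ages the core sum differed more in the Ifnar+/- libraries, and the sum of the whole list differed more in the Ifnar-/- libraries.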

How the data were processed

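The authors deposited raw counts: 1 UMI matrix per library over 32285 genes and 10 antibody tags, from 10x Chromium 3' v3.1 CITE-seq. Alignment to mm10 with Cell Ranger 6.0.1 is named in the submitters' processing notes, and the file headers name Cell Ranger 4. Strand and multi-mapping settings are not given in the sources used here, so overlapping and near-identical genes are uncertain.

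UMI were summed over the selected cells of each library, divided by the summed gene UMI and given as CPM. Log2 ratios used 0.5 added counts, and a gene was read with at least 50 UMI in 1 of the compared sums. Called means at least 2-fold. Intervals are 95% (exact conditional binomial for ratios, Clopper-Pearson for shares). With 1 library per age, sort and genotype, no test was run. Named genes were every gene of 31 fixed lists, plus the 10 lower and 10 higher with the largest ratio after adding 5 CPM (6 and 6 for age). Cells were clustered with scanpy 1.11.5 (Leiden, resolution 0.6), and doublets were removed only as an alternative. TMM factors (edgeR 4.0.16) were tried as another scaling, and the ratio code was tested on simulated data. The selected cells and gene lists were chosen with earlier results of these data known.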

Additional observations from a re-analysis of the deposited data

How the results depend on the processing

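The selected share was 36.3% in Ifnar+/- and 39.3% in Ifnar-/- at a threshold of 5 per 10000, 20.6% and 24.7% at 20, and 29.3% in Ifnar-/- with free RNA subtracted. Its difference between genotypes kept its sign in each alternative run. Genes 2-fold lower in Ifnar-/- selected cells numbered 38 with 5 CPM added, 301 at 10 UMI or more and 231 at 1.5-fold. Genes higher numbered 0 with 5 CPM added, 170 at 10 UMI or more, 13 at 200 UMI or more, 134 at 1.5-fold, 12 with cells thinned to 7500 UMI and 21 with doublets removed. They numbered 24 without cluster 11 and 21 with each cluster weighted by its pooled share, both chosen after seeing the data. The interferon median was -0.89 with 5 CPM added and -6.20 over the core list. Genes higher in selected than in other cells numbered 378 with 5 CPM added and 1539 at 1.5-fold, and lower genes 288 and 2014. The CD16/32 ratio was 6.36 and 8.62 as a share of tags, and with 5 CPM added 35 genes were lower and 28 higher at P14, both added after seeing the data. The monocyte-like difference was -0.032 points with finer clusters. Signs turned for the erythroid list's median (-0.12 without cluster 11), Rhd (-0.13 without cluster 11), F13a1 (-0.053 with clusters weighted) and Prg2 (-0.26 thinned), and the cause was not tested. Other scalings shifted the median of all genes by -0.01 or less in size. No paired analysis was possible because the P0 libraries compared share only 1 replicate number, which was given in accession order and pairs nothing. Fits across ages and sorts were not run.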

Other observations

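Further genes differed between the genotypes in the selected cells. Mid1, a ubiquitin ligase gene of the X chromosome that was singled out after its values were seen, had 431 UMI in Ifnar+/- and 2 in Ifnar-/- (log2 ratio -7.29). In the other cells its ratio was -7.36. Asns, an asparagine synthesis gene of the integrated stress response, had 26.0 and 35.7 CPM (0.45), and 9 of 10 genes read of that list were above 0, with a median of 0.35 and 1 at least 2-fold higher. Among 12 p53 target genes read, 9 were above 0, with a median of 0.17 and 0 at 2-fold. Over all genes read, 5756 of 11915 were above 0, with a median of -0.01. In the other cells 9 of 11 stress genes and 10 of 14 p53 target genes were above 0.

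Small numbers of UMI of other lineages were read as well. The B cell genes Ebf1 and Cd79a had 23 and 9 UMI in selected Ifnar+/- cells, and 195 and 88 UMI in Ifnar-/-. Pf4, a platelet chemokine, had 290 and 93 UMI. Of the 6 megakaryocyte genes read, 1 was at least 2-fold lower in Ifnar-/- and 0 higher. Of these genes 4 were below and 2 above 0, with a median of -0.11. Cells with Y-linked RNA and no Xist made up 24.2% and 27.4% of selected cells that had either, and 24.7% and 25.2% of the other cells, so both libraries held cells of both sexes.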
